A study of Mus musculus with 12 samples.

Results

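The 10 genes described here belong to BMP and myostatin signalling and its Id targets, and were followed in muscle stem cells with and without Sestrin1 and Sestrin2. They are the secreted antagonists Chrdl2, Grem1 and Fst, the ligands Bmp4 and Mstn, the receptors Bmpr1a and Bmpr2, and the target genes Id1, Id2 and Id3. They were taken by symbol from 30154 rows of gene-level estimates, and all 10 were among the 15890 genes that passed the filter on low counts. Chrdl2 was chosen by its low level in the knockout at day 7, a readout of these same libraries. The values of that contrast are therefore given as a description, with no test for any of the 10 genes. The libraries came from C57BL/6J mice 2 to 3 months old, either wild type or knockout for both Sestrin1 and Sestrin2. There were 12 libraries, 2 for each genotype at each of 3 times: day 0, which is uninjured muscle, day 7 and day 21 of the injury response. The muscle stem cells were sorted by flow cytometry from 3 hind limb muscles, the tibialis anterior, gastrocnemius and quadriceps. Neither the kind of injury nor sex, pooling or the knockout alleles are described in the labels. Where nothing says that the 2 libraries of a group came from separate animals, p-values measure only the spread between these libraries, which may be technical.

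Bone morphogenetic proteins (BMPs) and myostatin are secreted ligands of the TGF-beta family that bind pairs of type I and type II receptor kinases. BMP receptors phosphorylate Smad1, Smad5 and Smad9, which switch on the Id genes, while myostatin signals through activin receptors to Smad2 and Smad3. Id proteins are helix-loop-helix proteins without a DNA-binding region, and they hold back the E proteins and myogenic factors that drive muscle differentiation. In muscle, BMP signals keep myoblasts from differentiating, and myostatin limits muscle mass. Sestrins are stress-induced proteins that restrain mTORC1.

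Promoter sequences, the 250 bases before the transcription start in RefSeq on GRCm38.p6, were found for 7 of the 10 genes. Those of Mstn, Bmp4 and Id3 are shown because these genes had, in turn, the largest fitted genotype difference before injury among the 9 genes with counts in both genotypes, a fall at day 7 in both genotypes, and the highest level. Each reads 5′ to 3′ on the strand of its gene, and capitals mark CANNTG, the E-box that dimers of E proteins and myogenic factors bind.
Mstn, chr1:53061390-53061639, plus strand: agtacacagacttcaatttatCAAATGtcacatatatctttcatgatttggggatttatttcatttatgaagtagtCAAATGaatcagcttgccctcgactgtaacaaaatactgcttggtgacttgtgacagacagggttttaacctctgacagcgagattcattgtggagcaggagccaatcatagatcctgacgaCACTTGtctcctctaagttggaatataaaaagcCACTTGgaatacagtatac
Bmp4, chr14:46390670-46390919, minus strand: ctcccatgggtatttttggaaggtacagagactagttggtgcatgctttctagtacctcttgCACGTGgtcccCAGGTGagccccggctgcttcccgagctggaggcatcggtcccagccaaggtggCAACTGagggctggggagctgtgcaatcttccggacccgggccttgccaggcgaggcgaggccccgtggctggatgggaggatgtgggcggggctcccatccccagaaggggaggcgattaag
Id3, chr4:136143572-136143821, plus strand: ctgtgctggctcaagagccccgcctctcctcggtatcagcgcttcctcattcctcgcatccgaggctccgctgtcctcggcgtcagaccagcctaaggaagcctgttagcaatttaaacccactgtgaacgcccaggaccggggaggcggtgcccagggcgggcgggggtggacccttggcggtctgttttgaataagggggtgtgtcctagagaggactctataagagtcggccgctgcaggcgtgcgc
The Mstn promoter held 4 E-boxes, at 229, 174, 52 and 19 bases before the start, and the Bmp4 promoter held 3, at 188, 177 and 123 bases. Id2 held 1 and the promoters of Id3, Bmpr1a, Bmpr2 and Grem1 held 0 in this window. CANNTG reads the same on both strands and occurred in 66.2% of the 32851 promoters of the table. GGCGCC, a GC-rich Smad site that also reads the same on both strands, occurred once each in Id2, Bmpr1a, Bmpr2 and Grem1 and in 9.59% of all promoters. These 4 promoters had a GC content of 62.8% to 78.8%, where the median of the table was 52.4%. Of those without GGCGCC, Bmp4 and Id3 had 63.2% and 62.8%, within the same range, and Mstn 38.4%. GTCTAGAC, a palindromic Smad site, was in none of the 7 and in 0.167% of all promoters. The matches do not overlap each other, and they describe the letters of these windows only. The windows of Id3, Id2, Bmpr1a and Bmpr2 lie inside the gene bounds of GENCODE M21, which begin further upstream.

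Total estimated counts lay between 28396862 and 38950614 per library, and 17292 to 18142 genes had counts. Levels within a gene are given as CPM (counts relative to library sizes scaled by the trimmed mean of M-values), and levels between genes as TPM, which is per length. Fold changes are on the log2 scale from the edgeR quasi-likelihood fit of all 12 libraries, and a gene is called where the p-value, adjusted by the Benjamini-Hochberg method over all genes tested, is under 0.05. The targeted genes checked the labels. Wild type had 70.3 and 68.6 CPM of Sesn1 at day 0, the knockout 46.0 and 45.8, and at day 7 these were 84.0 and 67.9 against 28.4 and 22.4. Sesn2 stood further apart, with 75.1 and 84.3 against 5.47 and 7.03 CPM at day 0, and 44.9 and 47.4 against 2.36 and 1.92 at day 7. At day 21 Sesn2 went against the labels: replicates 1 and 2 labelled wild type had 8.92 and 82.1 CPM, and those labelled knockout 9.86 and 108. Sesn1 split by replicate as well, with 43.7 and 78.3 CPM where labelled wild type, against 41.7 and 67.2 where labelled knockout. Day 21 values are therefore given per library or over both genotypes, and comparisons of genotype at day 21 are marked as by label. Those comparisons mix libraries high and low in Sesn2 within each label. Every call of the 10 genes at day 0 and day 7 is also given for a fit without the 4 libraries of day 21. The labelled cell type was checked against its markers. All 10 muscle stem cell markers were detected, with Pax7 at 3.54 to 14.5 TPM as group means, beside abundant transcripts of other cells such as Dcn (2435 to 7730 TPM), Fmod (1286 to 7239) and Acta2 (1952 to 7049). In these bulk samples fewer cells of a type and less RNA per cell cannot be told apart.

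Chrdl2 (ENSMUSG00000030732, GRCm38 chr7:100006172-100034728, plus strand) encodes chordin-like 2, a secreted protein that binds BMPs and keeps them from their receptors. Wild type had 151 and 150 CPM of it at day 0, the knockout 74.5 and 68.4. Day 7 brought 31.1 and 27.5 CPM in wild type, against 7.87 and 8.41 in knockout. By label, day 21 had 170 and 179 CPM in wild type, against 136 and 121 in knockout. Chrdl2 was thus lower in both knockout libraries than in both wild-type libraries at day 0 and day 7, lowest in every library of day 7, and back above its wild-type day 0 level in the libraries labelled wild type at day 21. In groups of 2 libraries such a gap is common. The genotypes did not overlap for 75.1% of all tested genes at day 0 and 47.4% at day 7. The day 7 genotype difference that chose the gene was -1.85 on the log2 scale, a level in wild type 3.61 times that in knockout. That contrast called 1.76% of all genes, from which nothing is read for these 10. At day 0, which the choice did not use, Chrdl2 was lower in knockout by a log2 fold change of -1.08 (SE 0.0995, edgeR adjusted p 0.000261), 2.11 times lower. Without the day 21 libraries the value was -1.09 (edgeR adjusted p 5.77e-05). The call held when each library was left out in turn.

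The comparisons with day 7 use the libraries in which Chrdl2 was chosen, so its values in them are a description without a test, and the gene enters no count of calls there. The log2 fold change from day 0 to day 7 was -2.36 in wild type (SE 0.104) and -3.13 in knockout (SE 0.110), a difference of -0.77. From day 7 to day 21, over both genotypes, it was 3.28 (SE 0.0770). Day 21 against day 0 does not use those libraries, and Chrdl2 was higher at day 21 by 0.53 (SE 0.0697, edgeR adjusted p 0.000187), although the libraries of the 2 days overlapped, with wild type at day 0 above knockout at day 21. By label the genotypes did not overlap at day 21, as for 38% of all genes, and the difference of -0.44 did not pass (SE 0.0982, edgeR adjusted p 0.150). It passed with the DESeq2 Wald test (adjusted p 0.00517) and in edgeR without replicate 1 labelled wild type (adjusted p 0.0485). The knockout library with the lower Chrdl2 at day 21, at 121 CPM, was the one in which Sesn2 was at 108 CPM.

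**Figure D1:**
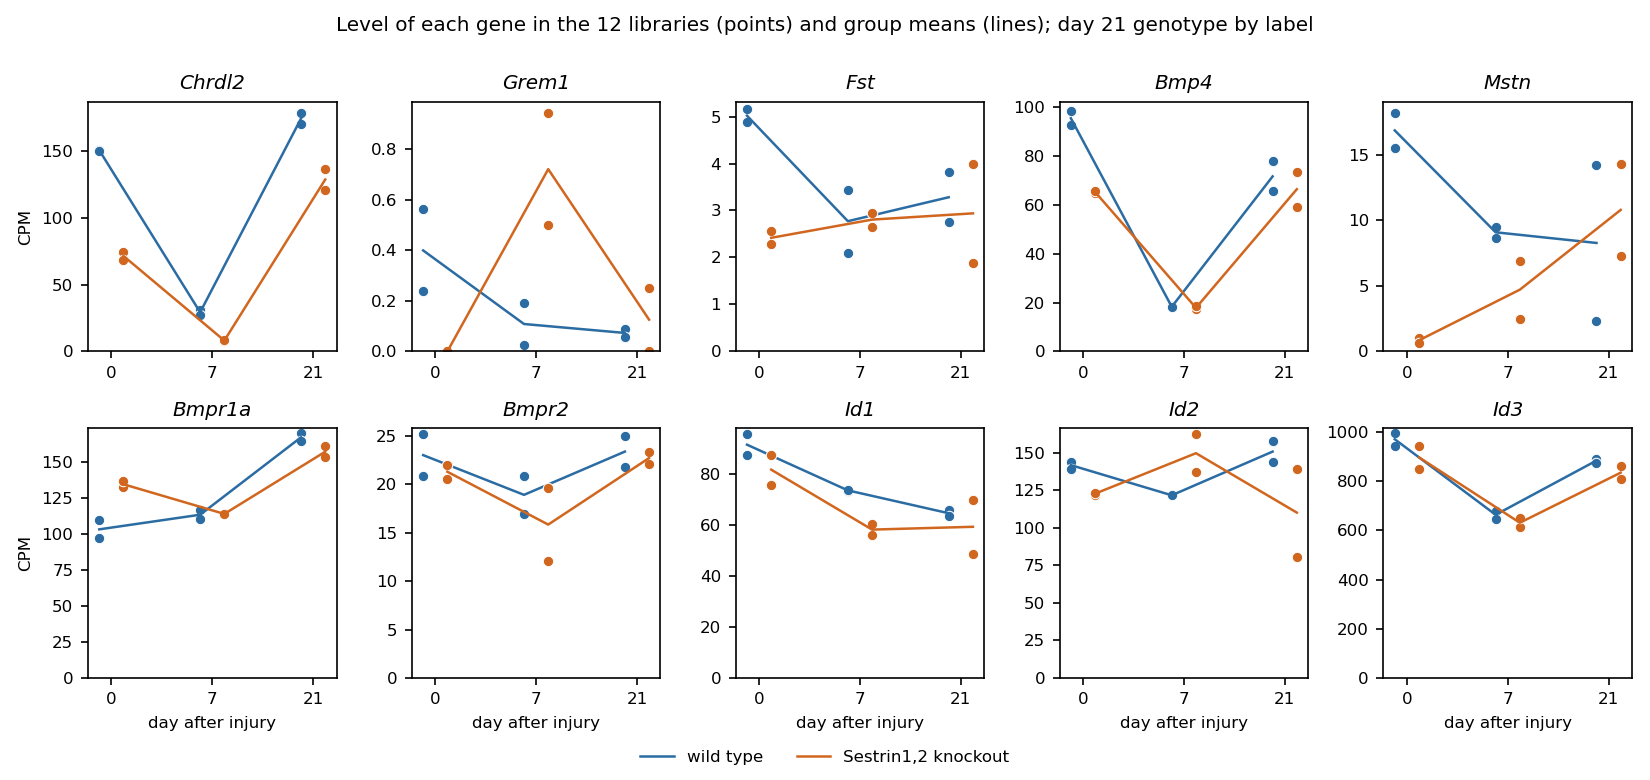
CPM (vertical axis, from 0) of each of the 10 genes by day after injury; points are libraries, lines join the means of 2 libraries, blue is wild type and orange is Sestrin1,2 knockout, with the genotype of day 21 by label. Chrdl2 and Bmp4 dip at day 7, where Chrdl2 is at 7.87 and 8.41 CPM in knockout, and Mstn in knockout starts near 1 CPM at day 0.

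Grem1 (ENSMUSG00000074934, GRCm38 chr2:113746164-113758646, minus strand) encodes gremlin 1, another secreted BMP antagonist, and was close to the limit of detection. Estimated counts at day 0 were 18 and 9 in wild type (0.562 and 0.237 CPM), against 0 and 0 in knockout. Those at day 7 were 8 and 1 in wild type (0.191 and 0.0259 CPM), against 20.3 and 29 in knockout (0.501 and 0.942 CPM). By label, day 21 had counts of 3 and 2 in wild type, against 0 and 8.1 in knockout. The wild-type libraries were the higher ones at day 0 and the knockout libraries the higher ones at day 7, without overlap on either day. The same lack of overlap held for 75.1% and 47.4% of all genes on these days. Grem1 was called lower in knockout at day 0 (edgeR adjusted p 0.0426, and 0.0197 without day 21), and higher at day 7 than at day 0 in knockout (edgeR adjusted p 0.0134, and 0.00641 without day 21). With a floor of 3 counts per library for knockout at day 0, the wild-type mean at day 0 was 3.96 times the floor. The knockout mean at day 7 was 7.16 times the floor. Single libraries lay closer to it than these means, at 0.237 and 0.501 CPM. The change from day 0 to day 7 differed between genotypes (interaction, edgeR adjusted p 0.0361, and 0.0141 without day 21). All 3 calls depend on single libraries. The day 0 call was lost without any of the 4 day 0 libraries or either knockout library of day 7 (adjusted p 0.0577 to 0.163), and with the replicate block, the batch-corrected values or log2 TPM without a filter (adjusted p 0.0620 to 0.177). The change in knockout was lost without either knockout library of day 0 (adjusted p 0.0651 and 0.0713), and the interaction without any of the 8 libraries of day 0 and day 7 (adjusted p 0.0560 to 0.120).

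Fst (ENSMUSG00000021765, GRCm38 chr13:114452290-114458951, minus strand) encodes follistatin, which binds activins and myostatin. Wild type had 5.15 and 4.88 CPM at day 0, the knockout 2.55 and 2.28. The 4 libraries of day 7 had 2.10 and 3.44 CPM in wild type, against 2.66 and 2.96 in knockout, and by label day 21 had 2.75 and 3.82 against 1.88 and 3.99. The wild-type libraries of day 0 stood above the other 10 libraries, which ranged from 1.88 to 3.99 CPM. The day 0 difference of -1.05 (SE 0.381) did not pass (edgeR adjusted p 0.0644) and passed without the day 21 libraries (-1.07, edgeR adjusted p 0.0213), in which leaving out replicate 1 or 2 labelled knockout at day 21 was enough (adjusted p 0.0331 and 0.0349). The same held for the wild-type change from day 0 to day 7, -0.86 (SE 0.376, edgeR adjusted p 0.0862) against -0.90 without day 21 (edgeR adjusted p 0.0294), where leaving out either of those libraries gave adjusted p 0.0414 and 0.0439. In knockout the value from day 0 to day 7 was 0.21 (edgeR adjusted p 0.684).

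Bmp4 (ENSMUSG00000021835, GRCm38 chr14:46383520-46390669, minus strand) encodes a BMP ligand. Before injury wild type had 92.8 and 98.3 CPM, the knockout 65.1 and 65.7. By day 7 the levels were 18.4 and 18.2 CPM in wild type, against 17.3 and 18.4 in knockout, and by label at day 21 they were 77.9 and 65.6 against 73.6 and 59.3. The genotypes stood apart at day 0, as those of 75.1% of all genes did, and overlapped at day 7. Bmp4 was lower in knockout at day 0 by a log2 fold change of -0.55 (SE 0.122, edgeR adjusted p 0.00920, and 0.000820 without day 21), a call lost without either knockout library of day 0 or without replicate 2 of wild type at day 0 (adjusted p 0.0565 to 0.0777). At day 7 the difference was -0.04. Bmp4 fell from day 0 to day 7 by 2.38 in wild type (SE 0.129, edgeR adjusted p 8.84e-07) and by 1.87 in knockout (SE 0.128, edgeR adjusted p 2.18e-06), and rose from day 7 to day 21 by 1.93 (SE 0.0902, edgeR adjusted p 2.34e-07). Without day 21 the falls had edgeR adjusted p 1.19e-07 in wild type and 2.61e-07 in knockout. The 2 falls differed by 0.51 (SE 0.175), which did not pass in the fit of all libraries (edgeR adjusted p 0.0810) and passed without day 21 (0.53, edgeR adjusted p 0.0113). Day 21 and day 0 differed by -0.19 (edgeR adjusted p 0.0899), which passed without replicate 1 labelled knockout or wild type at day 21 (adjusted p 0.0260 and 0.0370).

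Mstn (ENSMUSG00000026100, GRCm38 chr1:53061640-53068079, plus strand) encodes myostatin. Before injury wild type had 18.2 and 15.5 CPM, from 582 and 589 estimated counts, while the knockout had 1.03 and 0.663 CPM, from 34 and 18. By day 7 the levels were 8.66 and 9.52 CPM in wild type, against 2.51 and 6.92 in knockout. Replicates 1 and 2 of day 21 had 14.2 and 2.31 CPM where labelled wild type, against 14.3 and 7.30 where labelled knockout. Both knockout libraries lay below both wild-type libraries at day 0 and at day 7, days on which the genotypes of 75.1% and 47.4% of all genes did not overlap. At day 21 both replicate 1 libraries, in which Sesn2 was at 8.92 and 9.86 CPM, lay above both replicate 2 libraries. Mstn at day 0 had the largest genotype difference of the 9 genes with counts in both groups: -4.29 (SE 0.895, edgeR adjusted p 0.00952), 19.6 times lower in knockout, and -4.31 without day 21 (edgeR adjusted p 0.000532). The call was lost without replicate 1 (adjusted p 0.0550) or replicate 2 (adjusted p 0.0871) of the knockout. In knockout Mstn rose from day 0 to day 7 by 2.44 (SE 0.877, edgeR adjusted p 0.0483, and 0.00356 without day 21). That call was lost in 9 of the 12 fits that left out 1 library (adjusted p 0.0614 to 0.256), the exceptions being replicate 1 of the knockout at day 7 and both libraries labelled wild type at day 21. It was lost as well with median-of-ratios size factors, without the filter on low counts and in both fits on log2(TPM + 1), where the value was 1.24 (adjusted p 0.0505 to 0.134). The wild-type value was -0.89 (SE 0.736, edgeR adjusted p 0.355). The difference between the changes, 3.33 (SE 1.15), did not pass with all libraries (edgeR adjusted p 0.0928) and passed without day 21 (3.35, edgeR adjusted p 0.00842), as it did without replicate 1 or 2 labelled wild type at day 21 (adjusted p 0.0151 and 0.0156).

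Bmpr1a (ENSMUSG00000021796, GRCm38 chr14:34410734-34503341, minus strand) encodes a type I BMP receptor kinase. Wild type had 109.6 and 97.1 CPM at day 0, the knockout 133 and 137. At day 7 all 4 libraries lay between 111 and 116 CPM, and at day 21 between 154 and 170. Bmpr1a was the only one of the 10 genes called higher in knockout at day 0, by 0.38 (SE 0.0859, edgeR adjusted p 0.00955, and 0.00424 without day 21), a call lost without replicate 2 of the knockout (adjusted p 0.0725) or of wild type (adjusted p 0.0978) at day 0. It fell in knockout from day 0 to day 7 by 0.24 (SE 0.0858, edgeR adjusted p 0.0412), which was lost in 6 fits without 1 library (either knockout library of day 0, or any library of day 7, adjusted p 0.0638 to 0.131). It was lost in 7 other alternatives as well (adjusted p 0.0617 to 0.901), and on the log2 scale of TPM with a pseudocount of 1 the value was -0.03 (limma adjusted p 0.824). Without day 21 that fall had an edgeR adjusted p of 0.0113. From day 7 to day 21 Bmpr1a rose by 0.51 (SE 0.0607, edgeR adjusted p 4.78e-05), and day 21 stood above day 0 by 0.46 (SE 0.0607, edgeR adjusted p 0.000193). The changes from day 0 to day 7 differed by -0.38 between genotypes (SE 0.121, edgeR adjusted p 0.0679, and 0.0315 without day 21), and leaving out either library labelled wild type at day 21 was enough (adjusted p 0.0452 and 0.0499).

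Bmpr2 (ENSMUSG00000067336, GRCm38 chr1:59763400-59879014, plus strand) encodes the type II receptor that pairs with Bmpr1a. At day 0 wild type had 25.2 and 20.9 CPM, the knockout 22.0 and 20.6, followed by 20.9 and 17.0 against 12.1 and 19.6 at day 7, and between 21.8 and 25.0 in the 4 libraries of day 21. The genotypes overlapped on every day. Its 1 call in the fit of all libraries was a rise of 0.41 from day 7 to day 21 (SE 0.150, edgeR adjusted p 0.0367). That call was lost without any of 6 libraries (adjusted p 0.0518 to 0.125) and in 7 other alternatives, among them unscaled library totals, which gave 0.24, the fits on log2 TPM and the replicate block (adjusted p 0.0505 to 0.200). The libraries were replicate 1 of the knockout at day 0 and day 7, replicate 2 of wild type at day 7, both labelled knockout at day 21, and replicate 1 labelled wild type at day 21.

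Per length, the Id genes were the most abundant of the 10. Id3 ranged from 857 to 1220 TPM over the 12 libraries, Id2 from 112 to 220 and Id1 from 99.5 to 172. Id3 was above the other 9 genes in every library, while the ranges of Id2 and Id1 overlapped. Chrdl2 ranged from 8.57 to 196 TPM, Bmp4 from 14.2 to 71.0 and Bmpr1a from 34.5 to 68.2, and these 3 overlapped as well. Mstn ranged from 0.329 to 8.82 TPM, Bmpr2 from 1.29 to 3.19, Fst from 1.51 to 3.87 and Grem1 from 0 to 0.321. Id1, Id2 and Id3 summed to 1491 and 1549 TPM in wild type at day 0, against 1399 and 1521 in knockout, and 1281 and 1262 against 1160 and 1249 at day 7.

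Id1 (ENSMUSG00000042745, GRCm38 chr2:152736251-152737410, plus strand) is the classical target of BMP receptors. At day 0 wild type had 87.3 and 95.6 CPM, the knockout 75.8 and 87.5, followed by 73.3 and 73.8 against 56.0 and 60.3 at day 7. Day 21 by label had 65.8 and 63.3 CPM against 69.9 and 48.6. The genotypes overlapped at day 0 and stood apart at day 7, as those of 47.4% of all genes did, with a difference of -0.34. Id1 fell in knockout from day 0 to day 7 by 0.49 (SE 0.151, edgeR adjusted p 0.0218, and 0.00134 without day 21), a call lost without replicate 2 of day 0 or either replicate of day 7 in knockout (adjusted p 0.0554 to 0.130), with unscaled library totals, and with limma on log2(TPM + 1) without a filter (adjusted p 0.0608 to 0.0765). In wild type the value of -0.31 (SE 0.150) did not pass (edgeR adjusted p 0.112) and passed without day 21 (-0.36, edgeR adjusted p 0.00943), in which leaving out replicate 1 or 2 labelled knockout at day 21 was enough (adjusted p 0.0220 and 0.0219). Day 21 lay below day 0 by -0.48 (SE 0.107, edgeR adjusted p 0.00429), and every day 21 library was below every day 0 library. Between those days 30.6% of all genes had no overlap.

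Id2 (ENSMUSG00000020644, GRCm38 chr12:25093799-25097140, minus strand) is a paralog of both. At day 0 wild type had 144 and 139 CPM, the knockout 122 and 124, followed by 122 and 122 against 137 and 163 at day 7 and, by label, 144 and 158 against 140 and 80.9 at day 21. The knockout libraries were the lower ones at day 0 and the higher ones at day 7, without overlap on either day. Such a lack of overlap was also found for 75.1% and 47.4% of all genes on these days. The tests of Id2 did not pass with all libraries. Without day 21, where the library labelled knockout replicate 2 stood far below the other 3, the change from day 0 to day 7 was -0.26 in wild type (edgeR adjusted p 0.0281) and 0.26 in knockout (edgeR adjusted p 0.0296), and the difference between them was 0.52 (edgeR adjusted p 0.0152). With all libraries these were -0.22, 0.29 and 0.51 (edgeR adjusted p 0.393, 0.267 and 0.265). Leaving out replicate 1 or 2 labelled knockout at day 21 was enough for the change in knockout (adjusted p 0.0497 and 0.0493) and for the difference (adjusted p 0.0391 and 0.0390). Reads of Id2 can also match the pseudogene Gm6175, whose transcript aligned to Id2 over 380 of its 400 bases at 91.8% identity.

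Id3 (ENSMUSG00000007872, GRCm38 chr4:136143497-136145755, plus strand), also a BMP target, had 944 and 997 CPM in wild type at day 0, against 851 and 944 in knockout, followed by 679 and 648 against 612 and 650 at day 7, and between 808 and 892 at day 21. Its genotypes overlapped at day 7 and differed by -0.11 at day 0 (edgeR adjusted p 0.370). Id3 fell from day 0 to day 7 by 0.55 in wild type (SE 0.0885, edgeR adjusted p 0.000623) and by 0.51 in knockout (SE 0.0885, edgeR adjusted p 0.000913), and rose by 0.41 from day 7 to day 21 (SE 0.0625, edgeR adjusted p 0.000269). Without day 21 the falls had edgeR adjusted p 0.000112 in wild type and 0.000191 in knockout. Between the 2 falls the difference was 0.04 (SE 0.125, edgeR adjusted p 0.873).

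**Figure D2:**
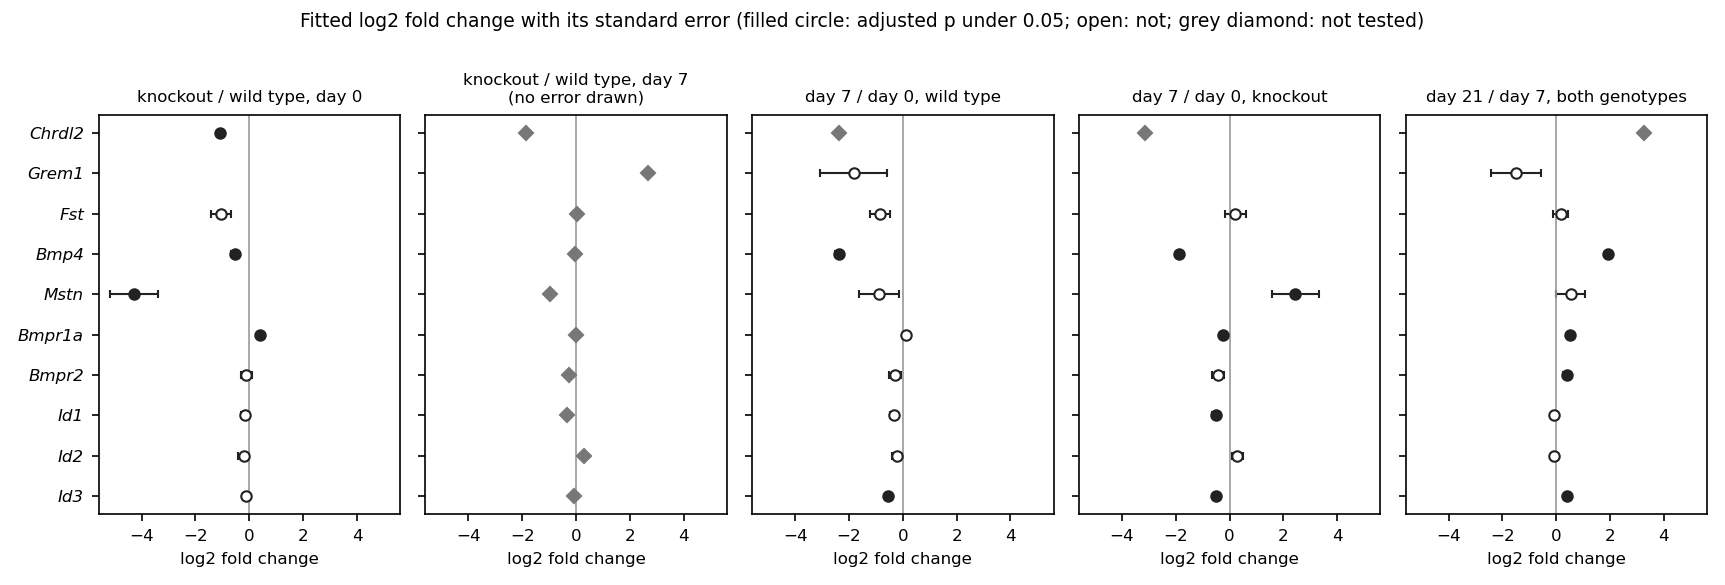
Fitted log2 fold change (horizontal axis) of each of the 10 genes with its standard error in 5 comparisons, with filled circles where the adjusted p is under 0.05, open circles where it is not, and grey diamonds where no test is given, which are the day 7 genotype contrast and Chrdl2 wherever day 7 enters. Grem1 is left out where a group has no counts, and Mstn at day 0 lies farthest to the left, at -4.29.

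Counted together, 1 of the 10 genes was called higher (Bmpr1a) and 4 lower (Chrdl2, Grem1, Bmp4 and Mstn) in knockout at day 0, where 27.4% of all genes tested were called. Without day 21, 6 of the 10 were called, against 38.9% of all genes. In the 3 comparisons with day 7 that follow, Chrdl2 is left out. From day 0 to day 7 in wild type 2 of 9 were called lower and 0 higher, where 47.0% of all genes were called, and 5 without day 21, against 54.0%. In knockout 2 of 9 were called higher and 4 lower, where 46.9% of all genes were called, and 7 without day 21, against 54.2%. From day 7 to day 21 over both genotypes 4 of 9 were called higher and 0 lower, against 56.8% of all genes. From day 0 to day 21, 2 of 10 were called higher and 1 lower, against 45.9%. By label at day 21 none of the 10 was called by edgeR, where 0.0126% of all genes were called. At an unadjusted p under 0.05 there were 2, where 14.2% of all genes passed, and the DESeq2 Wald test called 1, Chrdl2, where it called 4.07% of the genes to which it gave an adjusted p. The interaction of genotype and injury called 1 of 9, Grem1, where 13.5% of all genes were called, and 5 without day 21, against 24.8%. The median log2 fold change of the 10 genes was -0.38 for knockout at day 0, where that of all genes was 0.00, and that of the 9 without Chrdl2 was -0.55 after injury in wild type and -0.24 in knockout, where those of all genes were 0.06 and 0.03.

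Other genes of the pathway were read from lists by role. The list of targets of BMP signalling holds Id1, Id2, Id3, Id4, Msx1, Msx2, Hey1, Atoh8, Smad6, Smad7 and Bambi. All 11 had a lower fitted value in knockout at day 0 (median -0.37), of which 4 were called, where 27.4% of all genes were, and 7 without day 21, where 38.9% were. The value of Msx1, nearest to 0, turned positive in the fits on log2 TPM, without the filter, and in several fits that left out 1 library. Msx2, a homeobox repressor, had 7.02 ± 0.517 CPM (SD, n = 2) in wild type, against 0.550 ± 0.00364 in knockout, a log2 fold change of -3.67 (edgeR adjusted p 0.000913). Smad7, which inhibits receptor signalling, was lower in knockout by -0.90 (edgeR adjusted p 0.00150), and Hey1, a repressor also induced by Notch, by -0.84 (edgeR adjusted p 0.00498). The list was not lower as a whole in knockout at day 7. There 6 of the 11 had a higher and 5 a lower fitted value (median 0.15), with no test given. From day 0 to day 7 in wild type all 11 had a lower fitted value and 8 were called lower (median -1.02), where 47.0% of all genes were called in either direction, while on the log2 TPM scale Id2 and Atoh8 had positive values. In knockout 7 were called lower and 0 higher (median -0.51), where 46.9% of all genes were called. Id4 fell by 2.50 in wild type and by 1.62 in knockout (edgeR adjusted p 1.56e-05 and 0.000180), and Bambi, a decoy receptor, fell by 1.86 and by 1.24 (edgeR adjusted p 9.69e-06 and 9.87e-05). From day 7 to day 21 over both genotypes 7 of the 11 rose and 0 fell, where 56.8% of all genes were called, a share near that of the list.

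**Figure D3:**
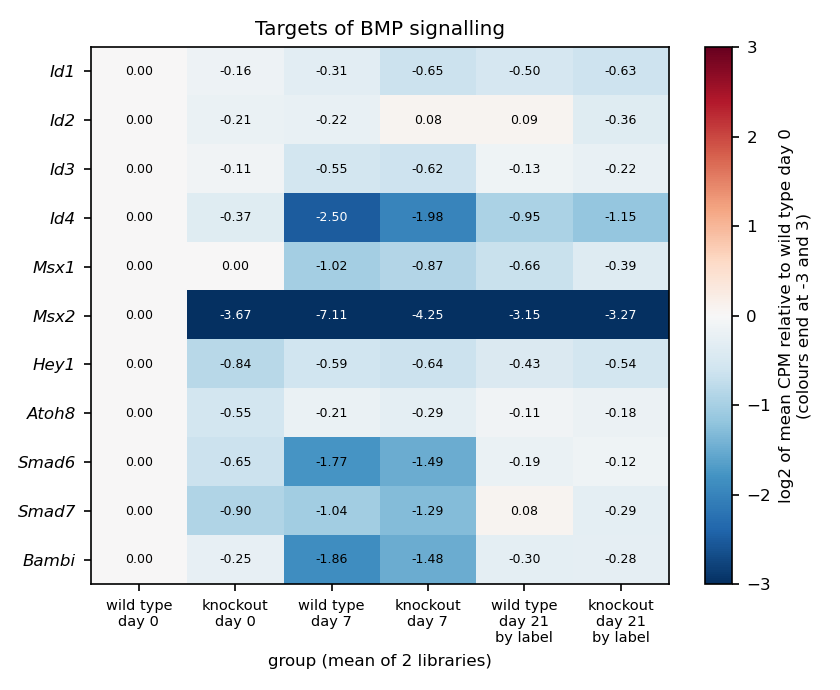
Log2 of the mean CPM of each listed BMP target relative to wild type at day 0, for the 6 groups of 2 libraries; blue is lower and red is higher, with the colour scale ending at -3 and 3 and the day 21 groups by label. Most cells are blue at day 7, where Id4 stood at -2.50 in wild type and -1.98 in knockout, and Id2 stays between -0.36 and 0.09.

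Of 18 tested ligands 1 was called higher and 6 lower in knockout at day 0, where 27.4% of all genes were called. The higher one was Tgfb3, with 270 and 280 CPM in wild type, against 532 and 534 in knockout (log2 fold change 0.95, edgeR adjusted p 0.000519). After injury the calls were 7 lower and 2 higher in wild type, against 7 lower and 4 higher in knockout, where 47.0% and 46.9% of all genes were called. Bmp7 fell by 3.02 in wild type and by 2.50 in knockout (edgeR adjusted p 2.91e-06 and 6.36e-06). At day 7 Inhba, the activin A subunit, and Bmp2 were higher in knockout by 0.71 each (edgeR adjusted p 0.0362 and 0.0483). No other listed ligand outside the 10 genes was called there, where 1.76% of all genes were called. Inhba had 17.5 and 18.3 CPM in wild type, against 28.7 and 29.7 in knockout, and Bmp2 28.9 and 31.0 against 44.4 and 53.2.

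Of 15 tested receptors 3 were called higher and 0 lower in knockout at day 0, where 27.4% of all genes were called, namely Bmpr1a, Tgfbr2 (0.61, edgeR adjusted p 0.00810) and the co-receptor Tgfbr3 (0.64, edgeR adjusted p 0.00321). Tgfbr3 had 124 and 129 CPM in wild type at day 7, against 77.3 and 92.3 in knockout, lower by a log2 fold change of -0.58 (edgeR adjusted p 0.0362). It was the only receptor outside the 10 genes called there, where 1.76% of all genes were called. It then rose by 2.76 to day 21 over both genotypes (edgeR adjusted p 4.06e-08). Of 23 tested antagonists and modulators 1 was called higher and 7 lower in knockout at day 0, against the same 27.4% of all genes. Bmper, a modulator that binds BMPs, was the higher one, by 0.68 (edgeR adjusted p 0.00500), and Bgn, a matrix proteoglycan, was lower by -0.66 (edgeR adjusted p 0.00463). After injury 6 of 22 without Chrdl2 were called higher and 8 lower in wild type, where 47.0% of all genes were called. Sostdc1, a BMP antagonist, fell by 3.58 (edgeR adjusted p 8.59e-07), and Fstl1, a follistatin-like protein, rose by 1.49 (edgeR adjusted p 9.76e-07). Of 14 tested Smads and regulators 2 were called higher and 2 lower in knockout at day 0, a share close to the 27.4% of all genes, with Smurf1, a ubiquitin ligase for Smads, higher by 0.84 (edgeR adjusted p 0.00184).

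Of the 8 listed factors that Id proteins hold back or pair with, 6 were called higher and 1 lower from day 0 to day 7 in wild type (8 without day 21), where 47.0% of all genes were called. The knockout had 5 higher and 1 lower (7 without day 21), where 46.9% were. Tcf3, which encodes E proteins, rose from 61.3 and 65.3 CPM to 148 and 154 in wild type (log2 fold change 1.25, edgeR adjusted p 5.44e-06) and by 1.42 in knockout (edgeR adjusted p 1.93e-06). Myf5, a myogenic factor, rose by 1.37 and by 2.27 (edgeR adjusted p 5.70e-05 and 2.44e-06). Hes1, a Notch target, fell by 2.30 in wild type (edgeR adjusted p 1.02e-05) and by 1.91 in knockout (edgeR adjusted p 2.38e-05). At day 0 Myf5 was lower in knockout, with 18.4 and 19.0 CPM against 35.1 and 36.3 in wild type (-0.94, edgeR adjusted p 0.00234), as was the E protein gene Tcf4 (-0.64, edgeR adjusted p 0.00354), while Tcf12 was higher (0.40, edgeR adjusted p 0.00752). Counts called at day 0 rose without the day 21 libraries, from 3 to 6 for these factors, from 8 to 16 for antagonists and from 4 to 8 for Smads, while that of all genes rose from 27.4% to 38.9%. Median log2 fold changes in knockout at day 0 were -0.18 for ligands, 0.11 for receptors, -0.23 for antagonists, -0.05 for Smads and -0.45 for the 8 factors, beside 0.00 for all genes. The calls of single genes outside the 10 that are given here for day 0 and day 7 also passed without day 21.

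The genes whose pattern over the 12 libraries was most like that of Chrdl2 were Cbs, Arl4d, Ces1d, Nedd4l and 4930578G10Rik. Likeness is the root-mean-square difference of log2 CPM after centring each gene on its own mean, and it was 0.436 for Cbs and 0.483 for Arl4d, where the standard deviation of Chrdl2 itself was 1.57. Cbs, a transsulfuration enzyme, had group means of 25.0 CPM in wild type at day 0, against 12.3 in knockout, 3.15 and 1.12 at day 7, and 14.4 and 14.3 by label at day 21. Arl4d, a small GTPase, had 204 and 115, then 27.0 and 20.3, then 187 and 174. For Id1 the closest were Ccs, Nmi, Phospho2, Nsmce4a and Zfand6, at 0.125 to 0.142, where Id1 itself had a standard deviation of 0.272. Among the 10 genes, Chrdl2 was closest to Bmp4, at 0.784. These are descriptions over libraries that share their sequencing and their day, with no test.

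Markers of several cell types moved with the same groups. At day 0 the summed TPM of the 10 muscle stem cell markers was 1037 and 1073 in wild type, against 716 and 754 in knockout. At day 0 as well, 10 fibro-adipogenic markers summed to 8036 and 8173 against 5759 and 5772, 8 pericyte and smooth muscle markers to 6713 and 6728 against 9810 and 10002, and 5 red blood cell markers to 3121 and 3128 against 742 and 782. For 8 immune markers the sums were 2031 and 2048 against 3406 and 3514 at day 0. Single genes made up most of several sums. Acta2 and Tagln led the pericyte and smooth muscle list, in which Rgs5 (32.9 against 23.2 TPM) and Kcnj8 (3.42 against 1.65) were lower in knockout, and Dcn led the fibro-adipogenic list, in which Pdgfra (3.66 against 5.90) and Smoc2 (140 against 162) were higher. The immune sums were almost all Lyz2 (2035 and 3455 TPM as group means), while Adgre1 and Cd3e were at 0 and 6 of the 8 were under 1 TPM in both genotypes. At day 7 the muscle stem cell markers summed to 1361 and 1498 TPM in wild type, against 1124 and 1148 in knockout, and the pericyte and smooth muscle markers to 2656 and 2667 against 3939 and 3962. The 8 markers of differentiating muscle summed to 4092 and 5027 against 4745 and 6246 TPM at day 7, where the sums at day 0 were 209 and 222 against 113 in both knockout libraries. As group means at day 7, Chodl (501 against 313 TPM) was the highest of the muscle stem cell list. In that list only Itga7 (131 against 136) and Cdh15 (141 against 153) were higher in knockout, as was Itga7 alone at day 0 (57.2 against 62.9). In the differentiating list only Myog (1080 against 888) and Mymk (307 against 253) were lower in knockout at day 7. The 6 Schwann cell markers summed to 3134 and 3201 TPM in wild type at day 0, against 3503 and 3586 in knockout, were lower at day 7 (661 and 716 against 700 and 782), and lay between 1347 and 1909 at day 21. The 6 tendon markers summed to 4897 TPM in replicate 2 labelled wild type at day 21 and to 12310 to 13610 in the other 3 libraries of that day. The part of these shifts in the values of Chrdl2, Bmp4, Mstn, Fst and the Id genes was not tested.

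**Figure D4:**
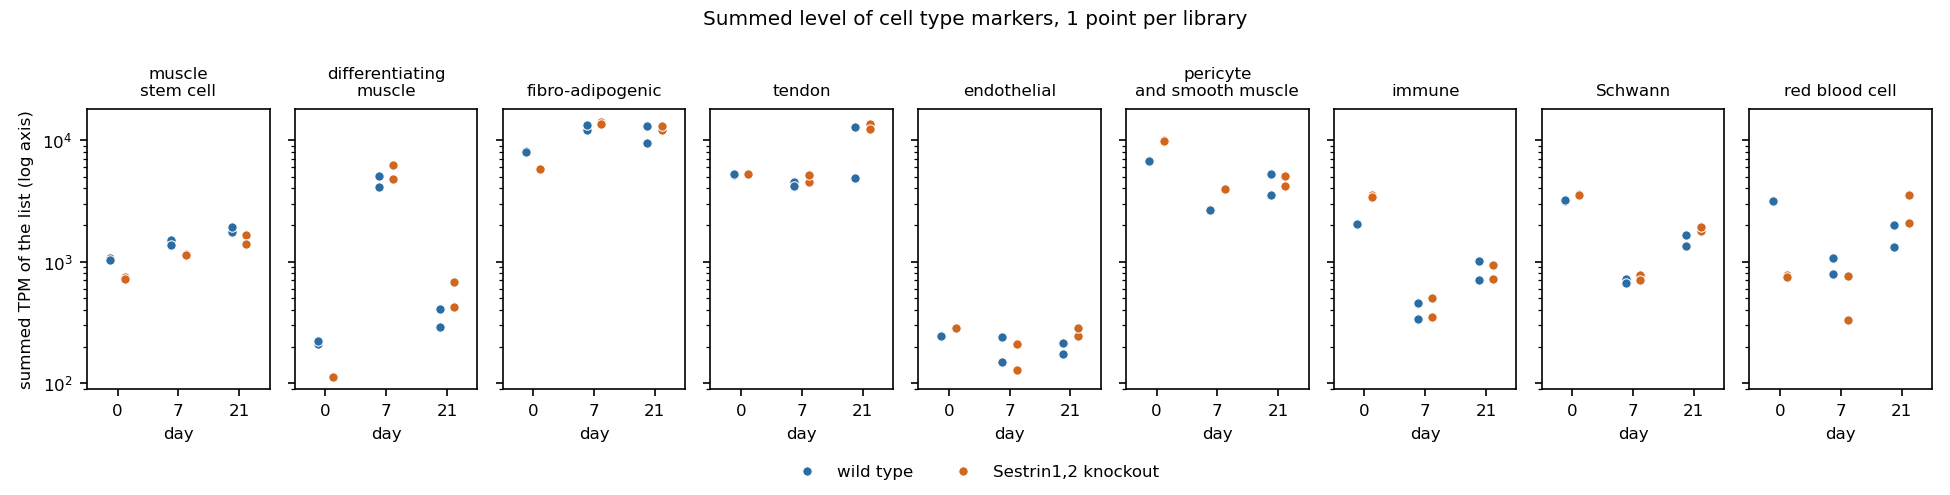
Summed TPM (log axis) of 9 lists of cell type markers by day, 1 point per library, blue for wild type and orange for Sestrin1,2 knockout, with the genotype of day 21 by label. Muscle stem cell markers lie at 716 and 754 in knockout at day 0, below the 1037 and 1073 of wild type, and differentiating muscle markers reach 4092 to 6246 at day 7.

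**Figure D5:**
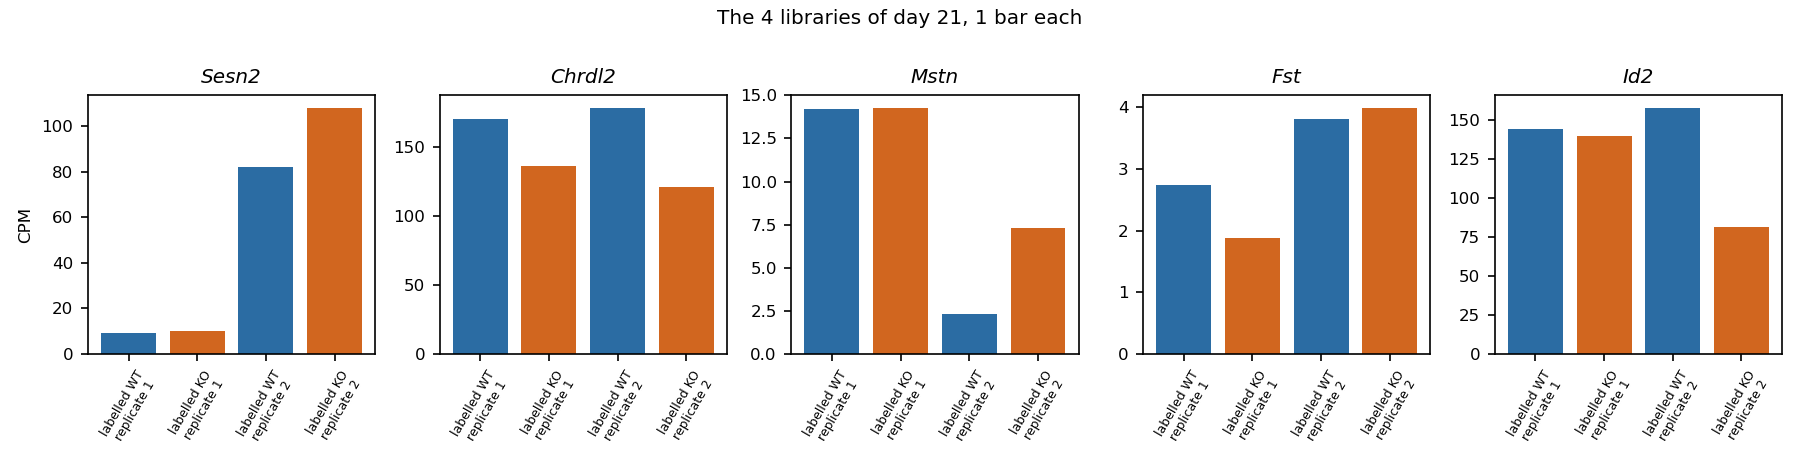
CPM (vertical axis, from 0) of Sesn2 and 4 of the genes in the 4 libraries of day 21, 1 bar each, ordered by replicate number and coloured by the labelled genotype. Sesn2 is at 8.92 and 9.86 CPM in both replicate 1 libraries and 82.1 and 108 in both replicate 2 libraries, Mstn is at 14.2 and 14.3 against 2.31 and 7.30, and Chrdl2 follows the label.

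Some reads cannot be assigned to 1 gene. Without strand in the protocol, reads of Bmp4, Bmpr1a and Fst from the 89, 290 and 115 exonic bases they share with an antisense gene, 2.5% to 4.6% of their exonic length, cannot be told apart. A transcript of Gm47551 aligned to Bmpr2 over 163 of its 165 bases at 91.4% identity.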

How the data were processed

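RNA from 12 libraries of sorted mouse muscle stem cells was measured by RNA-seq. Per the labels' protocols, SMART-Seq v4 cDNA was turned into Nextera XT libraries and sequenced from 1 end over 76 bases. The submitters' processing notes name kallisto 0.46.1 and the builds mm10 and GRCm38.p6. The authors deposited estimated counts per gene, not normalised, and the same genes in TPM. They also deposited regularised log2 values corrected for a batch that the files do not name, used here only as an alternative.

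Estimated counts were rounded and filtered with filterByExpr, which left 15890 genes, scaled by TMM (factors 0.915 to 1.09), and fitted with 1 mean per genotype and day by the robust quasi-likelihood method of edgeR 4.0.16 (prior count 0.125, 6 residual degrees of freedom). An SE is the size of the log2 fold change divided by the root of its F value. R 4.3.3 ran the fits, matplotlib 3.10.9 under Python 3.11.15 drew the figures, and BLAST 2.17.0 sought near copies at 90% identity over 80% of the shorter transcript. The tests were checked on simulated counts.

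The 10 genes, the lists and the tests were chosen with earlier results of these data known. Named were all 10 genes, Sesn2, at most 3 called genes per list and comparison by adjusted p, of which part is given, and the 5 closest to Chrdl2 and to Id1. Positions are from GENCODE M21. Alternatives were DESeq2 1.42.0, other scalings and filters, a gene length offset, limma 3.58.1 on log2 TPM (pseudocounts 1 and 0.1, at least 1 TPM in 2 libraries or no filter) and on the batch-corrected values, the replicate number as a block, the 8 libraries of day 0 and day 7 alone, and leaving out each library. Replicates of a group differed beyond counting noise, and none were merged.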

Additional observations from a re-analysis of the deposited data

Results flagged for a closer look

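For each of the 14 genes that follow, the change from day 0 to day 7 was called different between genotypes. The edgeR test was of the difference itself, over all genes. That test called 13.5% of all genes. The calls of Smad7, Hey1 and Tcf12 lay close to the threshold of 0.05. Except for Grem1, the calls were not followed through fits that left out 1 library. The 14 were picked by the same adjusted p: Grem1, and at most 3 called genes per list, of which part is given. Differences called above and below 0 were 2 and 1 of 18 ligands, 0 and 1 of 15 receptors, and 5 and 0 of 22 antagonists without Chrdl2. They were 1 and 2 of 14 Smads, 3 and 0 of 11 targets, and 1 and 1 of 8 factors. Grem1 had 0.400 CPM at day 0 and 0.109 at day 7 in wild type, against 0 and 0.722 in knockout (adjusted p 0.0361). That call was lost when any 1 library of day 0 or day 7 was left out. Msx2 fell to 0.0508 from 7.02 CPM in wild type, where the knockout had 0.550 and then 0.369 (adjusted p 0.00180), which rests on a handful of counts at day 7. Tgfbr3 went from 182 to 127 CPM and from 283 to 84.8 (adjusted p 0.00265). Tgfb3 had 275 and then 307 CPM in wild type, against 533 and then 305 in knockout (adjusted p 0.00490), so that the genotypes met at day 7. Hey1 did likewise, from 57.7 to 38.4 CPM and from 32.2 to 37.0 (adjusted p 0.0490), as did Myf5, from 35.7 to 92.3 and from 18.7 to 90.3 (adjusted p 0.0234), and Tcf12, from 117 to 167 and from 154 to 165 (adjusted p 0.0462). Inhba went from 56.9 to 17.9 CPM and from 42.0 to 29.2 (adjusted p 0.00729), and Bmp2 from 97.5 to 29.9 and from 90.1 to 48.8 (adjusted p 0.0315). Sostdc1 went from 64.2 to 5.35 CPM and from 45.0 to 8.38 (adjusted p 0.0171). Bgn went from 265 to 793 CPM and from 168 to 872 (adjusted p 0.0194). Smad5 went from 21.4 to 36.3 CPM and from 31.3 to 30.6 (adjusted p 0.0318). Per length the knockout values of Smad5 ran the other way. As group means, knockout was lower at day 0, at 7.58 TPM against 8.40 in wild type. Knockout then rose to 10.82 TPM at day 7, and the rise in wild type was larger. Smurf1 went from 68.0 to 64.6 CPM and from 122 to 72.4 (adjusted p 0.0375), and Smad7 from 38.4 to 18.7 and from 20.6 to 15.6 (adjusted p 0.0496).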

How the results depend on the processing

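Of the 21 called values of the 10 genes, 11 kept their call and their direction under every alternative that gave a value, and 0 changed sign. They are those of Chrdl2 at day 0 and at day 21 against day 0, the 3 of Bmp4 after injury, the 3 of Id3, those of Bmpr1a at day 21 against both earlier days and that of Id1 at day 21 against day 0. The day 7 value of Chrdl2 lay between -1.94 and -1.70, the latter with the batch-corrected values. Of 30 further values that passed neither with all libraries nor without day 21 and are not given singly, 17 changed sign under some alternative. The count of genes called from day 0 to day 7 in knockout, 6 of 9, was 3 with limma on log2(TPM + 1), with and without the filter. In wild type, 2 became 4 with the batch-corrected values and 5 without day 21, and the value of Id2 turned to 0.0083, 0.0084 and 0.0083 in the fits on log2 TPM with pseudocount 1, 0.1 and 1 without a filter. The difference between the falls of Id3 turned to -0.064, -0.064 and -0.064 in those fits, and lay between -0.0359 and 0.1064 when 1 library was left out, below 0 without knockout day 0 replicate 1, wild-type day 0 replicate 2 (-0.0102) or knockout day 7 replicate 2 (-0.0051). The fits on log2 TPM with a filter moved the median of all genes after injury in wild type from 0.06 to 0.24 and 0.28, and leaving out scaling factors moved that in knockout from 0.03 to 0.15. From day 0 to day 21, 3 became 5 without scaling factors and 5 with the batch-corrected values. By label at day 21, 0 became 1 with DESeq2. The interaction count, 1, was 3 with DESeq2, 0 with at least 10 counts in every library (which does not test Grem1), 0 in each of the 3 fits on log2 TPM, 3 with the batch-corrected values and 5 without day 21. Leaving out 1 library gave 1 to 6 calls at day 0, the lowest without knockout replicate 2, where 1667 of all genes were called, 0 to 1 by label at day 21 (Chrdl2 without wild-type replicate 1, Id2 without knockout replicate 1), 2 to 4 after injury in wild type (4 without either library labelled knockout at day 21), 2 to 6 in knockout (2 without knockout day 0 replicate 2, 3 without replicate 1), 3 to 5 from day 0 to day 21 and 0 to 3 for the interaction. Deviations of same-numbered libraries correlated at -0.143 to 0.070 over the pairs of groups, so the numbers were not read as pairs. With the replicate block the interaction count was 0. Counting depth limits Grem1 most, with at most 29 counts in a library.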
